A study of Mus musculus with 24 samples.

Results

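The amino acid transporters described here are the solute carriers of the Slc1, Slc3, Slc7, Slc36, Slc38 and Slc43 families. They were taken by gene symbol, with 1 probe for each gene, the probe with the highest mean over all arrays. The rule found 38 transporters, measured by 86 probes, among 19057 named genes. Their expression was measured in 2 fat tissues of male C57Bl/6J mice, the brown (BAT, brown adipose tissue) and the white (WAT, white adipose tissue). The mice ate 1 of 3 diets: low in fat, rich in fat from corn oil, or rich in fat with added EPA/DHA (eicosapentaenoic acid, docosahexaenoic acid), the long-chain fatty acids of fish oil. Each of the 6 groups held 4 arrays, 24 in all, from mice selected as typical of their diet group in weight and plasma lipids.

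Amino acids cross the plasma membrane on carriers that differ in the residues they accept and in the gradient that drives them. Slc1 proteins carry glutamate, aspartate or small neutral amino acids with sodium, and Slc38 proteins carry glutamine and other small neutral residues with sodium. Slc36 proteins are proton-coupled, Slc43 proteins mostly let large neutral amino acids such as leucine pass by facilitated diffusion, and most Slc7 proteins of the light-chain type reach the membrane bound to a heavy chain, Slc3a2 or Slc3a1. In adipose tissue, Slc7a10 (Asc-1) is known as a surface marker of white adipocytes and Slc36a2 (PAT2) as one of brown and beige adipocytes. Leucine and glutamine taken up by such carriers feed protein synthesis, the mTORC1 growth pathway and, in fat, the branched-chain breakdown that supplies carbon for lipids.

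The arrays carried the markers of their labelled tissues. Ucp1, the uncoupling protein of brown fat, had group means of 13.92 to 14.16 in BAT and 7.35 to 8.19 in WAT, on a log2 scale whose floor lay near 7. Genes of skeletal muscle were high in BAT (mean over the 11 markers with a probe 7.80 to 12.39 per array, against 7.33 to 7.56 in WAT). Liver-type genes were high in WAT (mean over 15 markers 8.78 to 11.76, against 7.13 to 8.20 in BAT). In the WAT groups, 12 to 13 of these 15 had a group mean above 7.5. Alb, the defining liver gene, was at the floor in every group (7.05 to 7.10), and the source of the liver-type signal was not tested. EPA/DHA replicate 2 and corn-oil replicate 4 of WAT had the highest brown adipocyte marker means of that tissue, 9.33 and 8.48. The extraction text speaks of skeletal muscle although the tissue labels say adipose tissue, the white depot is not named, and ages are not given. No label says that equally numbered BAT and WAT arrays come from 1 mouse, so p-values measure the spread between these arrays. In whole tissue, fewer cells of a type and less RNA per cell cannot be told apart.

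The promoters of Slc43a1 and Slc1a3 are shown because these were the transporters that differed between diets. Both are read 5′ to 3′ on the gene's own strand as the 250 bases before an annotated start in RefSeq (GRCm38.p6), with any searched motif in capitals.
Slc43a1, chr2:84840073-84840322, plus strand: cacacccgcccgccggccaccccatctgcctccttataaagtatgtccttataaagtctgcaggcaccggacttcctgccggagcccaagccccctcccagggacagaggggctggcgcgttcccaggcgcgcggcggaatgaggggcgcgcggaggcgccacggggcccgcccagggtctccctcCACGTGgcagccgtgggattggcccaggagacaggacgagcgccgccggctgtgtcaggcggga
Slc1a3, chr15:8710808-8711057, minus strand: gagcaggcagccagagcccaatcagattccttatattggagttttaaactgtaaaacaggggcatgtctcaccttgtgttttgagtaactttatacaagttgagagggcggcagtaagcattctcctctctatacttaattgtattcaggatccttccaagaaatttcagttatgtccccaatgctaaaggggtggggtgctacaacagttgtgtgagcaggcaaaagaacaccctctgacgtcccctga
The Slc43a1 stretch lies inside the span of the gene (chr2:84838855-84863586), which has an earlier annotated start. The capitals mark the E-box CACGTG, at positions -64 to -59 from the start. No other searched motif occurred in it, and none occurred in the Slc1a3 stretch.

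The transporters, Slc43a1 and Slc1a3 included, were screened for the same 4 short motifs. These were searched on both strands in RefSeq windows of 300 bases, 250 before and 50 after each start. The windows matched were 39, from 28 of the 38 transporters. Some windows of the same gene overlap, so a site can be counted more than once. CACGTG was present in 7 of these 39 windows and in 7.2% of all 32851 windows. AGGTCA, the core of many nuclear receptor sites, was present in 7 of 39 windows and in 16.3% of all, and the C/EBP motif TTGCNNAA in 6 of 39 and in 10.8% of all. TGATGNAA, the composite motif to which C/EBP and ATF factors such as ATF4 bind, was present in 4 windows (Slc1a4, Slc7a11 and 2 windows of Slc7a7) and in 4.0% of all. A match describes the letters and is not a measured binding site.

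Most of the 38 transporters were dim on these arrays. In 14 of them a group mean was above 7.5, and in the other 24 no group mean reached that level. A filter on low values kept 33 transporters in WAT, 34 in BAT and 35 in at least 1 of the tissues. Slc7a12, Slc7a15 and Slc36a3 passed it in neither and were not tested. Values close to the floor have compressed differences, so a small difference in a dim transporter can understate a larger one. Slc7a5, Slc3a1, Slc36a4 and Slc38a6 were not analysed here.

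White and brown fat were compared over the 3 diets, 12 arrays against 12. The light-chain carrier Slc7a10 and the leucine carrier Slc43a1 were the transporters most raised in WAT, and the proton-coupled carrier Slc36a2 was the one most raised in BAT. Of 35 transporters tested, 13 were higher in WAT (31.3% of all genes were) and 5 were higher in BAT (28.3% of all genes) at an adjusted p of 0.05 (limma, Benjamini-Hochberg adjustment). This is 51.4% of the tested transporters, while 59.6% of all 14264 genes tested differed between the tissues, so a tissue difference was not more frequent among transporters than among all genes. The median difference, WAT minus BAT, was 0.010 for the transporters and -0.008 for all genes. The ranges of the 2 tissues did not overlap for 6 transporters (17.1%, against 21.4% of all genes), namely Slc7a10, Slc43a1, Slc7a8 and Slc1a5 on the WAT side and Slc36a2 and Slc7a6 on the BAT side.

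Among light chains, Slc7a10, which exchanges glycine, serine, alanine and cysteine, ran from 10.29 to 11.02 in WAT (median 10.54) and from 7.45 to 7.91 in BAT (median 7.75). Every WAT array was therefore above every BAT array by a wide margin. The difference was 2.91 ± 0.08 on the log2 scale (limma, adjusted p = 4.9e-17). Slc7a10 lies at chr7:35186095-35201116 (GRCm38.p6, as are all positions here), on the same chromosome as the light chain Slc7a9, which stayed at the floor in both tissues (group means 7.10 to 7.14). Slc7a8 (LAT2), which exchanges neutral amino acids, ran from 7.67 to 8.24 in WAT and from 7.05 to 7.28 in BAT. Its difference was 0.80 ± 0.05 (adjusted p = 4.7e-12). Its dimmer second probe gave 0.17 ± 0.02, the same direction at a smaller size. Slc7a7 (y+LAT1), an exchanger of cationic for neutral amino acids, was higher in WAT by 0.18 ± 0.03 (adjusted p = 1.2e-05).

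Slc7a6 (y+LAT2), which exchanges cationic for neutral amino acids, was the light chain that was higher in BAT. It ran from 7.49 to 8.06 in BAT and from 7.33 to 7.48 in WAT, and the difference was -0.42 ± 0.05 (limma, adjusted p = 5.8e-07). The heavy chain Slc3a2 (CD98hc), which escorts several of these light chains, was between 7.12 and 7.72 on all arrays. Its tissue difference was 0.01 ± 0.04 (adjusted p = 0.881), so no difference was detectable for the shared partner. The cystine-glutamate exchanger Slc7a11 (xCT), another partner of Slc3a2, had group means of 7.12 to 7.17 and a difference of -0.03 ± 0.02 (adjusted p = 0.159). Both are too close to the floor for an absence of change to be read from them. Of the 5 cationic Slc7 members tested, Slc7a4 was higher in WAT by 0.07 ± 0.02 (adjusted p = 0.00146) and the other 4 did not pass. Of all genes, 31.3% were higher in WAT and 28.3% higher in BAT. All 5 were dim, with no group mean above 7.5, and those of Slc7a4 were 7.14 to 7.28.

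**Figure D1:**
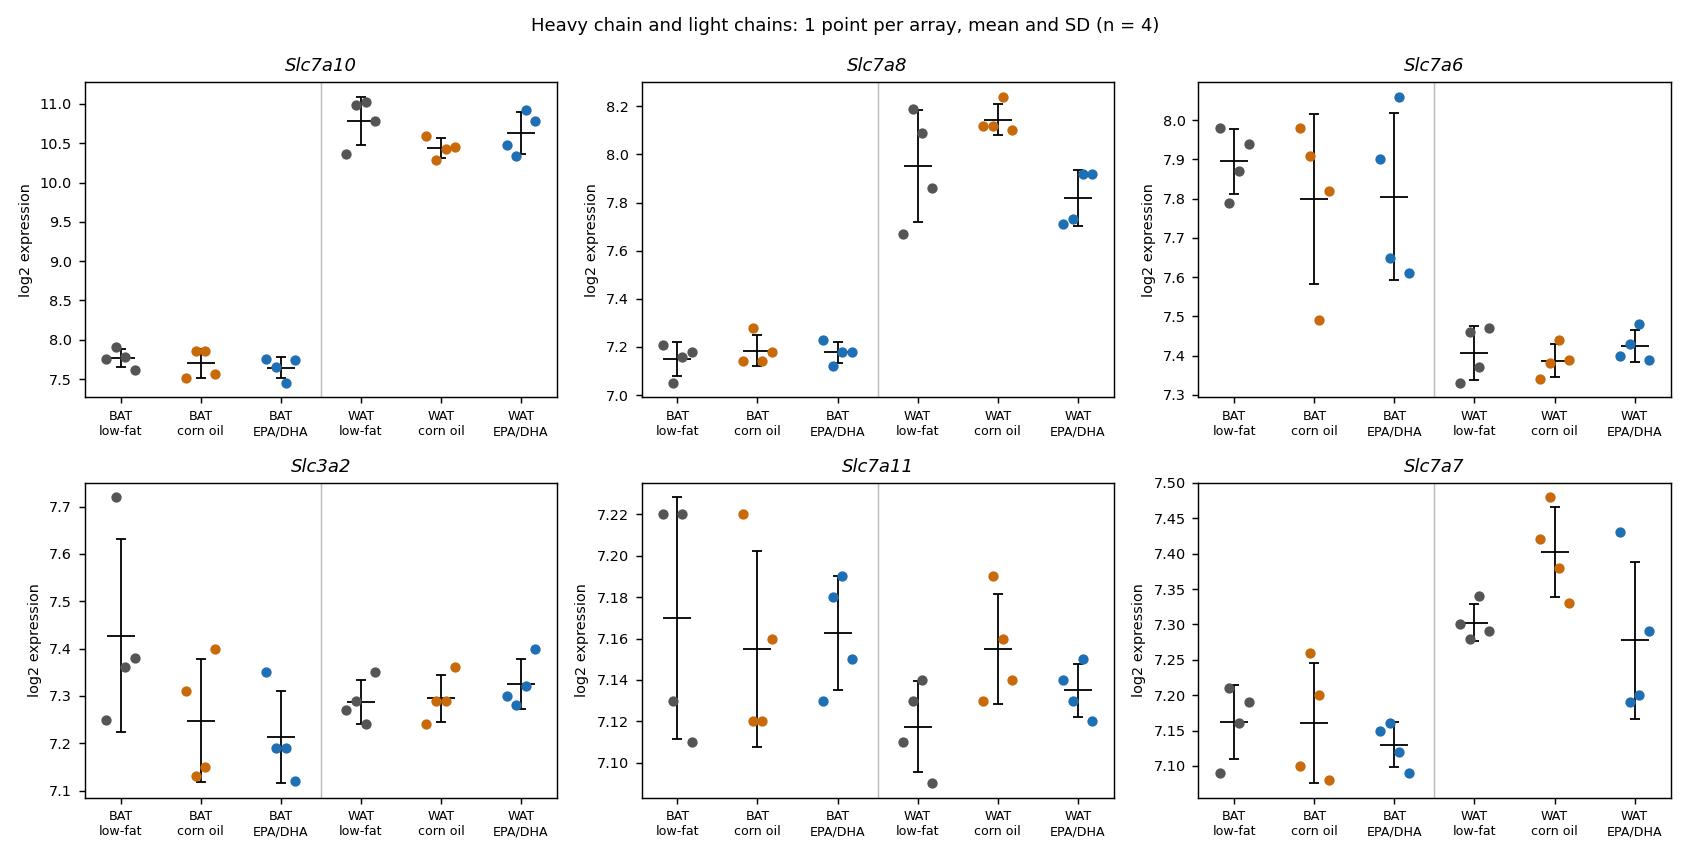
Values of the heavy chain Slc3a2 and of 5 light chains by array (vertical axis, log2 expression, with its own range in each panel), for BAT and WAT and the 3 diets, with 1 point per array and lines at the group mean and SD (n = 4). Slc7a10 lies above 10 on all WAT arrays and below 8 on all BAT arrays, while Slc3a2 stays between 7.12 and 7.72.

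Slc36a2, which carries glycine, alanine and proline with protons, was the transporter with the largest difference towards BAT. It ran from 8.18 to 9.06 in BAT (median 8.82) and from 7.48 to 8.02 in WAT (median 7.71). The lowest BAT array, EPA/DHA replicate 4, had a skeletal muscle marker mean of 12.39, the highest of the series. On the same diet, replicate 2 had Slc36a2 at 9.04 with a muscle mean of 11.45, and replicate 3 had 8.77 with 7.80. The part of the muscle genes was not tested. The tissue difference of Slc36a2 was -1.06 ± 0.07 (limma, adjusted p = 4.4e-11). Slc36a2 lies at chr11:55158468-55185099 between its relatives Slc36a3 and Slc36a1. Neither neighbour had a group mean above 7.20, so both are too close to the floor for an absence of change to be read from them. Slc36a3 was not tested.

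The 7 Slc1 members were all called between tissues, 4 higher in WAT and 3 higher in BAT, where 59.6% of all genes were called. Slc1a2, Slc1a4, Slc1a6 and Slc1a7 were dim, with no group mean above 7.40, so their calls rest on small differences near the floor. Slc1a3 (GLAST), a sodium-driven glutamate and aspartate carrier, ran from 11.00 to 13.10 in WAT and from 10.89 to 11.45 in BAT. The ranges overlapped, since the WAT arrays of the corn-oil diet lay at BAT level, and the difference over diets was 0.76 ± 0.12 (limma, adjusted p = 1.4e-05). Slc1a5 (ASCT2), an exchanger of glutamine and other neutral amino acids, ran from 8.03 to 8.71 in WAT and from 7.46 to 7.93 in BAT. Its difference was 0.65 ± 0.06 (adjusted p = 2.4e-09), and its 2 other probes that passed the filter gave 0.53 and 0.54. Slc1a4 (ASCT1), a neutral amino acid exchanger, and Slc1a2 (GLT-1), a glutamate carrier, were higher in WAT by 0.19 ± 0.02 (adjusted p = 1.4e-07) and 0.20 ± 0.04 (adjusted p = 4.9e-04). The 3 dimmer Slc1a2 probes tested gave 0.03, -0.05 and 0.08. Its 4 highest WAT values, from 7.30 to 7.56, were on the 4 arrays with the highest liver marker means (11.60, 11.76, 11.13 and 11.07), and the part of these genes was not tested. The glutamate carriers Slc1a1, Slc1a6 and Slc1a7 were higher in BAT, with differences of -0.26, -0.10 and -0.10. The call for Slc1a1 rests on its brightest probe, as its 2 other probes each gave -0.01.

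Of the 10 Slc38 members tested by their brightest probe, 3 were higher in WAT and none was higher in BAT. Of all genes, 31.3% were higher in WAT and 28.3% higher in BAT. Slc38a9, the lysosomal arginine sensor of the mTORC1 pathway, was higher in WAT by 0.18 ± 0.03 (limma, adjusted p = 5.7e-06), with 0.02 (adjusted p = 0.394) and 0.10 (adjusted p = 4.2e-04) from 2 other probes. Slc38a7, a lysosomal glutamine carrier, was higher in WAT by 0.14 ± 0.03 (adjusted p = 6.8e-04). Slc38a3 (SNAT3), a glutamine carrier known from liver, was higher in WAT by 0.31 ± 0.09 (adjusted p = 0.00479). Its highest WAT arrays were corn-oil replicate 1 at 8.09, low-fat replicate 1 at 7.78 and corn-oil replicate 2 at 7.72, while all BAT arrays were between 7.04 and 7.27. Those 3 WAT arrays had liver marker means of 11.76, 11.60 and 11.13, and the part of these genes in the Slc38a3 difference was not tested. For Slc38a2 (SNAT2), the amino acid-responsive alanine and glutamine carrier, the brightest probe gave -0.19 ± 0.14 (adjusted p = 0.241). Its second bright probe gave -0.48 ± 0.07 (adjusted p = 1.1e-05), so the tissue call for Slc38a2 depended on the probe.

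In the Slc43 family, Slc43a1 (LAT3), a facilitated carrier of leucine, isoleucine, valine, phenylalanine and methionine, ran from 7.74 to 9.33 in WAT and from 7.25 to 7.66 in BAT. The difference was 0.93 ± 0.08 (limma, adjusted p = 3.3e-09), and the second probe gave 0.68 ± 0.05. Slc43a3, a relative known mainly as a purine nucleobase carrier and encoded beside Slc43a1 on chromosome 2, was higher in WAT by 0.19 ± 0.03 (adjusted p = 7.2e-05), while its second probe gave 0.02 ± 0.02 (adjusted p = 0.530). Slc43a2 (LAT4), the other leucine carrier of the family, had group means of 7.15 to 7.22 and did not pass.

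The size of several tissue differences depended on the probes used. With the mean of all probes of a gene, all 18 called transporters kept their call and direction. The difference was clearly smaller for Slc7a8 (0.484), Slc1a5 (0.344), Slc7a6 (-0.219), Slc7a7 (0.105), Slc43a3 (0.105), Slc1a1 (-0.092), Slc38a9 (0.077), Slc1a2 (0.053) and Slc7a4 (0.035). Slc38a2 and Slc38a10 were then called too, both higher in BAT (-0.253 and -0.056).

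**Figure D2:**
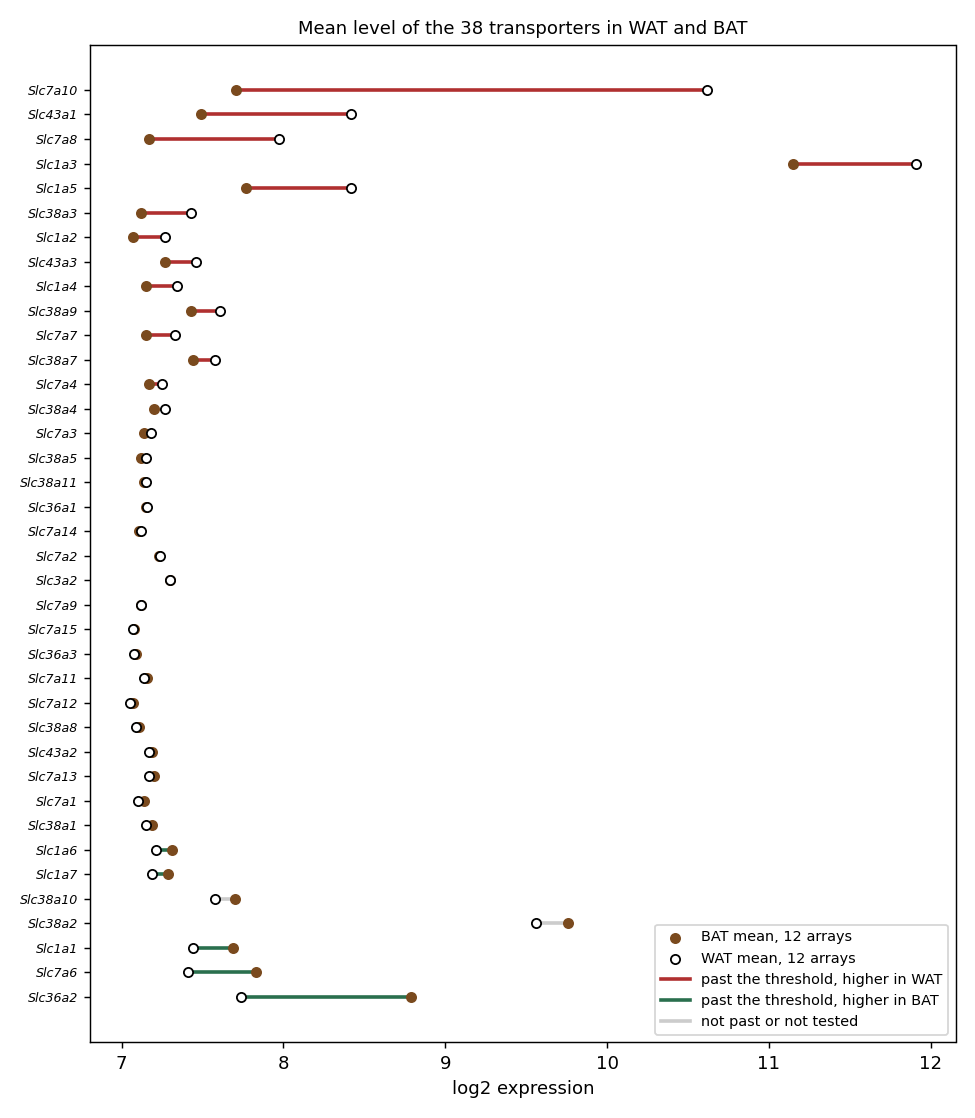
Mean log2 expression (horizontal axis) of each of the 38 transporters over the 12 arrays of BAT (filled) and of WAT (open), 1 row per transporter, with the joining line coloured where the difference passed the threshold. Slc7a10 has the longest line towards WAT (2.91) and Slc36a2 the longest towards BAT (-1.06), and most other transporters lie close together near the floor.

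The corn-oil high-fat diet was compared with the low-fat diet in WAT, 4 arrays against 4. The leucine carrier Slc43a1 and the glutamate carrier Slc1a3 fell, and no transporter was called higher. Among 33 transporters tested these are 2 calls, both lower (6.06%, limma, adjusted p under 0.05), against 3.87% of all 13351 genes called in either direction and 1.82% called lower. The median difference of the transporters was 0.004, and that of all genes was -0.002. The 2 diets did not overlap for 6 transporters (18.2%, against 12.4% of all genes). An unadjusted p under 0.05 was found for 9 transporters, the 2 called ones included, and for 19.7% of all genes.

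Slc43a1 in WAT was 9.26, 8.62, 8.75 and 9.33 on the low-fat diet. On the corn-oil diet it was 7.74, 8.04, 7.97 and 7.83, so all 4 corn-oil arrays were below all low-fat arrays. On the EPA/DHA diet it was 8.44, 8.66, 8.40 and 7.98, between the other 2 diets and overlapping both. It fell by 1.09 on the log2 scale with corn oil (SE 0.18, limma, adjusted p = 0.0130). The second probe of the gene fell by 0.81 (SE 0.11, adjusted p = 0.00620). The call was kept in each of the 8 fits that left out 1 array of these diets (adjusted p 0.0128 to 0.0391).

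In BAT, Slc43a1 was 7.49, 7.64, 7.66 and 7.49 on the low-fat diet and 7.36, 7.25, 7.60 and 7.48 on the corn-oil diet. These overlapping values gave a difference of -0.15 ± 0.07 (limma, adjusted p = 0.639), and the second probe gave -0.14 ± 0.04 (adjusted p = 0.432). The BAT values lay close to the floor, so a fall as large as that in WAT could not show there in full. The part of the floor in the tissue contrast that follows was not tested. The corn-oil difference of WAT exceeded that of BAT by -0.94 ± 0.20 (interaction over 24 arrays, adjusted p = 0.0360), and the second probe gave -0.67 ± 0.12 (adjusted p = 0.0141). Slc43a1 was the only one of 35 transporters (2.86%) with such an interaction, against 0.652% of all 14264 genes in either direction and 0.217% in the same one. An unadjusted p under 0.05 was found for 8 of the 35 and for 13.1% of all genes. Its call was lost in 11 of the 16 fits that left out 1 array, with adjusted p from 0.0125 to 0.0820 over the 16. Those 11 fits left out low-fat replicate 1, 3 or 4 or corn-oil replicate 1, 3 or 4 of BAT, or low-fat replicate 1 or 4 or corn-oil replicate 1, 3 or 4 of WAT. The interaction call was kept in 4 of 9 other alternatives, and it was lost with the replicate number as a block in the fit.

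Slc1a3 in WAT was 12.62, 11.94, 12.14 and 13.10 on the low-fat diet. On the corn-oil diet it was 11.35, 11.40, 11.00 and 11.00, below every low-fat array. On the EPA/DHA diet it was 12.73, 11.99, 11.94 and 11.76, above every corn-oil array and overlapping the low-fat ones. It fell by 1.26 with corn oil (SE 0.26, limma, adjusted p = 0.0324). With the replicate number as a block in the fit, the adjusted p was 0.0519 and the call was lost. This call is less stable than that of Slc43a1. It was lost in 6 of 8 fits without 1 array, those without low-fat replicate 1 or 4 or any 1 of the 4 corn-oil arrays, where the difference stayed between -1.43 and -1.05 over all 8 fits (adjusted p 0.0272 to 0.0863). In BAT, Slc1a3 was between 10.89 and 11.34 on these diets, and the interaction was -1.14 ± 0.29 (adjusted p = 0.0910).

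Markers of several cell types moved between the same WAT groups. The mesothelial marker mean (9 of 10 listed genes with a probe) was 7.64 to 7.99 on the low-fat and 7.35 to 7.64 on the corn-oil diet, and the mast cell mean (8 of 8) was 7.69 to 7.95 against 7.52 to 7.67. The pan-adipocyte mean (7 of 8) was 11.57 to 11.67 against 11.39 to 11.52, while the macrophage mean (15 of 18) was 8.96 to 9.24 against 9.21 to 9.58. With the mesothelial mean as a covariate, the Slc43a1 difference was -0.997 (adjusted p = 0.0495) and the Slc1a3 difference was -1.10, no longer past the threshold (adjusted p = 0.114). With the macrophage mean as a covariate both differences were larger, -1.34 (adjusted p = 0.00850) and -1.58 (adjusted p = 0.0231). Without the 2 WAT arrays with raised brown adipocyte markers, Slc43a1 kept its call (-1.07, adjusted p = 0.0376) and Slc1a3 did not (-1.20, adjusted p = 0.105). The part of the mast cell and pan-adipocyte genes was not tested.

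Slc1a5, the glutamine exchanger, followed the same order of diets at a smaller size. In WAT it was 8.68, 8.62, 8.71 and 8.30 on the low-fat, 8.15, 8.35, 8.34 and 8.03 on the corn-oil and 8.41, 8.34, 8.65 and 8.46 on the EPA/DHA diet. The corn-oil arrays were the low ones but overlapped both other diets. The corn-oil difference was -0.36 ± 0.10 and missed the threshold (limma, adjusted p = 0.101), with -0.35 and -0.32 from 2 other probes. The white adipocyte marker Slc7a10 was 10.36, 10.99, 11.02 and 10.78 on the low-fat diet and 10.59, 10.29, 10.42 and 10.45 on the corn-oil diet. Its groups overlapped, and the difference of -0.35 ± 0.16 did not pass (adjusted p = 0.309).

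The other 4 transporters whose low-fat and corn-oil groups did not overlap were dim and did not pass. Slc38a9, the lysosomal arginine sensor, was 7.63 to 7.70 on the low-fat and 7.52 to 7.61 on the corn-oil diet (-0.11, limma, adjusted p = 0.0757). Slc7a3, a cationic amino acid carrier, differed by -0.09 (adjusted p = 0.110) and Slc7a4 by 0.06 (adjusted p = 0.163). Slc36a1 (PAT1), a lysosomal and plasma membrane proton-coupled carrier, differed by 0.09 (adjusted p = 0.0733), and was called higher with a trended and robust prior (adjusted p = 0.0395). All these differences are small beside those of Slc43a1 and Slc1a3.

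**Figure D3:**
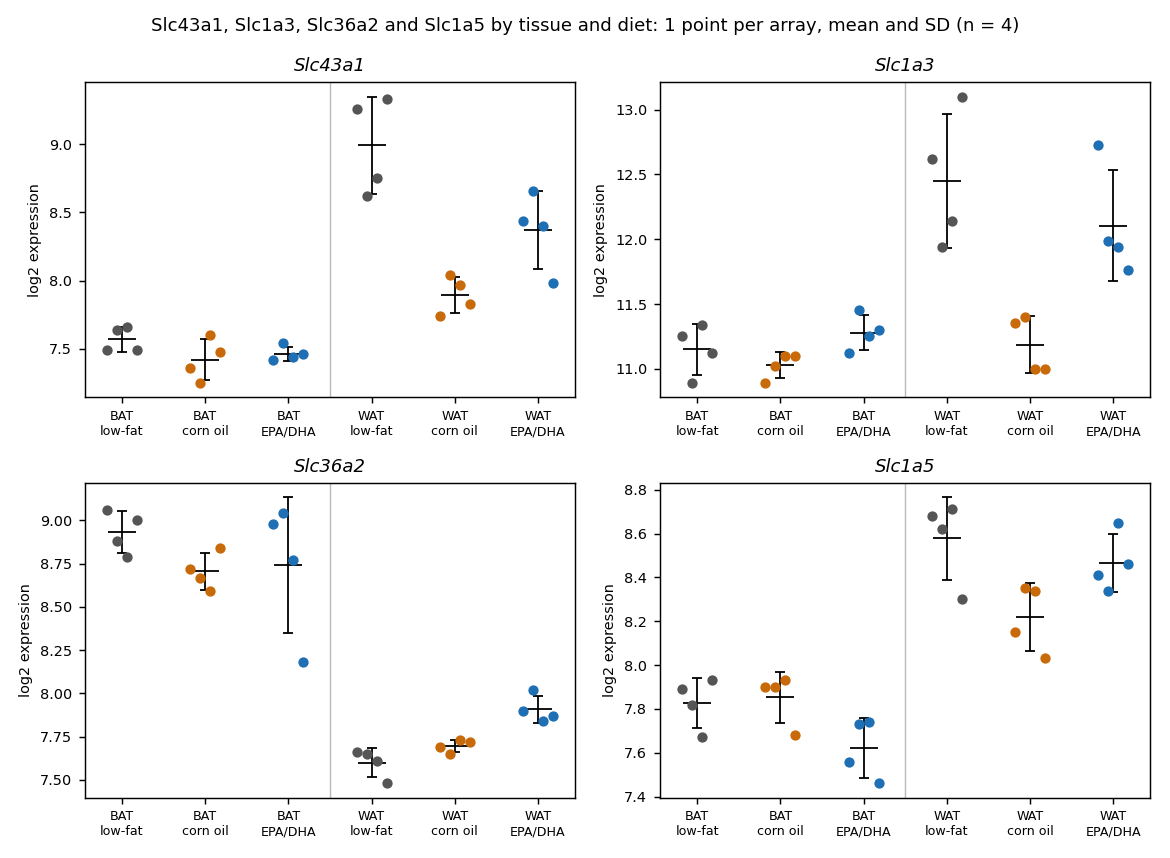
Log2 expression (vertical axis) of Slc43a1, Slc1a3, Slc36a2 and Slc1a5 in BAT and WAT on the 3 diets, with 1 point per array and lines at the mean and SD of 4 arrays. In WAT the corn-oil arrays of Slc43a1 (7.74 to 8.04) and Slc1a3 (11.00 to 11.40) lie below all low-fat arrays, and the EPA/DHA arrays of Slc36a2 (7.84 to 8.02) lie above all other WAT arrays.

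The EPA/DHA diet was then compared with the corn-oil diet in WAT, the comparison between the high-fat diets. None of 33 transporters passed, while 2.34% of all 13351 genes did (limma). Unadjusted p was under 0.05 for 9 transporters, against 17.6% of all genes. The median difference was -0.018 for the transporters and 0.002 for all genes. Slc36a2, Slc1a3 and Slc38a11 were higher on every EPA/DHA array than on every corn-oil array, and Slc7a8 was lower, so 12.1% of the transporters did not overlap against 10.2% of all genes.

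Slc36a2, the brown and beige fat carrier, in WAT was 7.66, 7.65, 7.61 and 7.48 on the low-fat diet and 7.69, 7.65, 7.73 and 7.72 on the corn-oil diet. On the EPA/DHA diet it was 7.90, 8.02, 7.84 and 7.87, above all 8 arrays of the other diets. EPA/DHA exceeded corn oil by 0.21 ± 0.05 (limma, adjusted p = 0.0525), just outside the threshold. It passed with a filter at the 60th percentile (adjusted p = 0.0426), with array weights (adjusted p = 0.0418) and with the mean of all probes of each gene (adjusted p = 0.0425). It did not pass in the other 11 of 14 alternatives (adjusted p up to 0.631) or in any of the 8 fits without 1 array (0.0774 to 0.124). The brown adipocyte marker mean of WAT was 7.68 to 8.08 on the low-fat, 7.61 to 8.48 on the corn-oil and 7.92 to 9.33 on the EPA/DHA diet. With that mean as a covariate the Slc36a2 difference was 0.17 (adjusted p = 0.102), and without the 2 arrays with raised brown markers it was 0.18 (adjusted p = 0.135). All WAT values of Slc36a2 stayed below the lowest BAT array, 8.18.

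Slc1a3 exceeded its corn-oil level on EPA/DHA by 0.92 ± 0.26 and missed the threshold (limma, adjusted p = 0.115), although the groups did not overlap. It passed in the single fit over all 24 arrays (adjusted p = 0.0211). Slc43a1 differed by 0.47 ± 0.18 (adjusted p = 0.228), and its 2 groups overlapped. Slc7a8 in WAT was 8.12, 8.12, 8.24 and 8.10 on corn oil and 7.71, 7.73, 7.92 and 7.92 on EPA/DHA. The EPA/DHA arrays were lower without overlap, by -0.33 ± 0.10 (adjusted p = 0.140), and its dimmer probe gave -0.02. The brighter probe passed in the single fit over all 24 arrays (adjusted p = 0.0363) and with only the 8 arrays of both diets (adjusted p = 0.0479). The low-fat arrays of Slc7a8, at 7.67 to 8.19, spanned both.

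EPA/DHA was also compared with the low-fat diet in WAT, where 0.0300% of all 13351 genes were called. None of the 33 transporters passed (limma), and 5 had an unadjusted p under 0.05, against 9.06% of all genes. Slc36a2 had the smallest p, with a difference of 0.31 ± 0.05 (adjusted p = 0.0788) and no overlap between the groups. Slc7a4 was the other transporter without overlap, and 2 of 33 is 6.06%, against 4.66% of all genes. Slc43a1 was lower by 0.62 on average, with overlapping arrays (difference -0.62 ± 0.18, adjusted p = 0.422). The median difference of the transporters was -0.027.

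**Figure D4:**
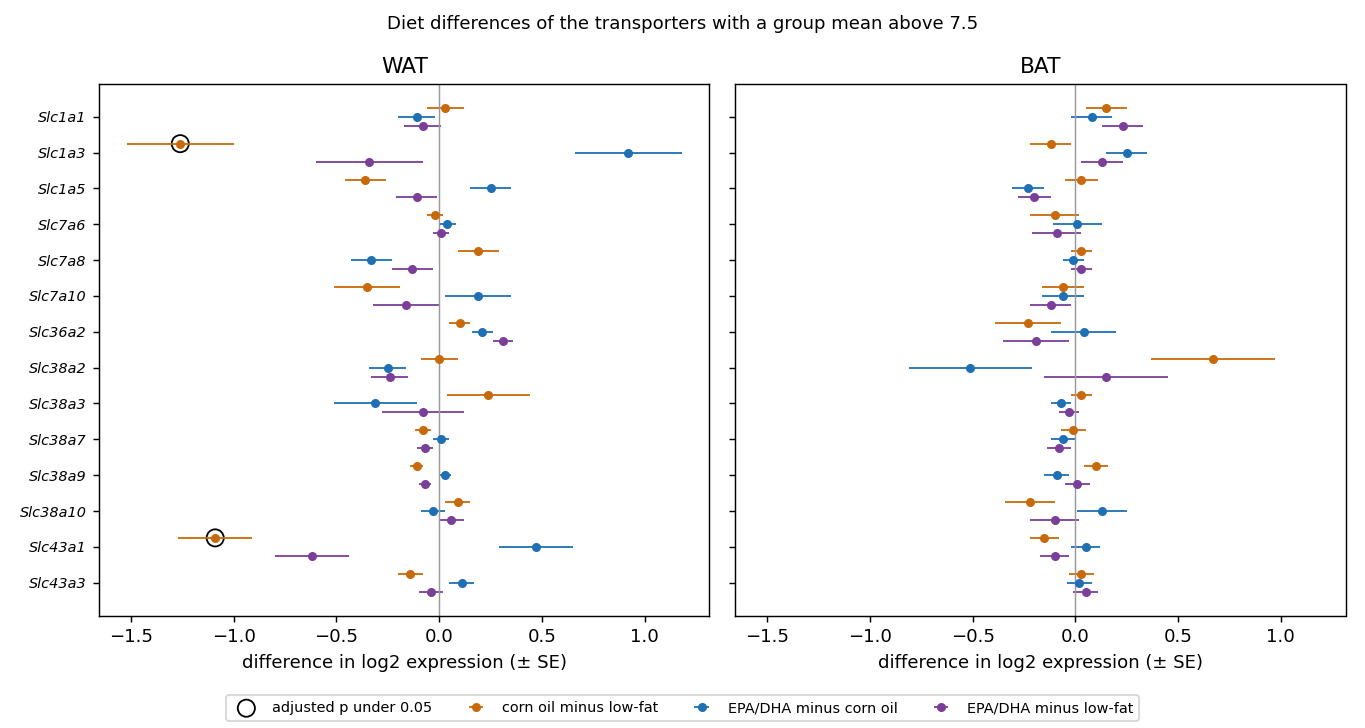
Differences in log2 expression (horizontal axis, bars ± SE) between diets in WAT and BAT for the 14 transporters with a group mean above 7.5, coloured by comparison. Circled points passed an adjusted p of 0.05, which only Slc43a1 and Slc1a3 did, for corn oil minus low-fat in WAT.

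In BAT no transporter passed in any diet comparison (limma). For corn oil against low-fat 0% of all 13402 genes passed, and 1 of 34 transporters had an unadjusted p under 0.05, against 9.10% of all genes. The groups overlapped for all 34, while they did not for 5.15% of all genes. The transporter with the smallest p was Slc38a2, the alanine and glutamine carrier, at 9.83, 8.61, 9.70 and 9.79 on the low-fat and 10.03, 9.47, 10.58 and 10.52 on the corn-oil diet. The groups overlapped, and the difference was 0.67 ± 0.30 (adjusted p = 0.619). Without low-fat replicate 2, the array at 8.61, it was 0.38 (adjusted p = 0.727). Its second probe did not share the direction (-0.11 ± 0.15). The 4 corn-oil arrays had skeletal muscle marker means of 10.21, 10.11, 12.19 and 12.01, and the 2 highest of these were also highest in Slc38a2. On the low-fat diet, replicate 2 was lowest in both (8.87 and 8.61). On EPA/DHA, replicate 4 had the highest muscle mean (12.39) with Slc38a2 at 9.72, and replicate 3 the lowest (7.80) with 9.67. With the muscle mean as a covariate the difference was 0.46 (limma, adjusted p = 0.784). Over 10 alternatives it ranged from 0.21, with the mean of all probes of the gene, to 0.67.

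For EPA/DHA against corn oil in BAT 0% of all genes passed, and 2 transporters had an unadjusted p under 0.05, against 4.98% of all genes. Slc1a5 differed by -0.23 ± 0.08 (limma, adjusted p = 0.999), in the same direction in its 2 other probes (-0.26 and -0.20). Slc1a3 differed by 0.25 ± 0.10 (adjusted p = 0.999), its EPA/DHA arrays at 11.12 to 11.45 lying above its corn-oil arrays at 10.89 to 11.10. Slc38a9 was lower without overlap (-0.09), although its other probes gave 0.03 and 0.08. In all, 2 of 34 transporters (5.88%) had groups that did not overlap, against 3.71% of all genes. For EPA/DHA against low-fat 0.00746% of all genes passed, and 3 transporters had an unadjusted p under 0.05, against 4.77%, while no transporter's groups were apart (2.63% of all genes). The 3 were Slc1a5 (-0.20 ± 0.08, adjusted p = 0.925), Slc1a1 (0.23 ± 0.10, adjusted p = 0.981) and the heavy chain Slc3a2 (-0.22 ± 0.10, adjusted p = 0.981). Without BAT low-fat replicate 2, where Slc1a1 was 7.95, the Slc1a1 difference was 0.36 (adjusted p = 0.115), and with the mean of its probes it was 0.065.

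The diet differences of the tissues were also set against each other for EPA/DHA. For EPA/DHA minus corn oil 0.252% of all 14264 genes had an interaction, and none of 35 transporters did (limma), with 5 under an unadjusted p of 0.05 (8.45% of all genes). The smallest p belonged to Slc1a5, which differed upwards in WAT (0.25 ± 0.10) and downwards in BAT, an interaction of 0.48 ± 0.14 (adjusted p = 0.256). Slc7a8 followed with -0.32 ± 0.11 (adjusted p = 0.446). For EPA/DHA minus low-fat 0.00701% of all genes and no transporter had an interaction, with 6 transporters under an unadjusted p of 0.05 (6.44% of all genes). Slc36a2 had the smallest p there, with 0.50 ± 0.17 (adjusted p = 0.615).

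Other genes that handle amino acids were counted in the same fits, from lists of the pathway. In WAT, 3.87% of all genes were called for corn oil against low-fat and 2.34% for EPA/DHA against corn oil. Among 22 other amino acid carriers tested in WAT, 1 rose with corn oil, the GABA and taurine carrier Slc6a13, from a mean of 9.96 to 10.72 (0.77 ± 0.18, limma, adjusted p = 0.0463). It fell by 0.82 from corn oil to EPA/DHA (SE 0.18, adjusted p = 0.0471), to a mean of 9.91. Its corn-oil mean was thus the highest of the 3 diets, while for Slc43a1 and Slc1a3 it was the lowest. Of 31 target genes of ATF4, the factor that many amino acid carriers answer to in amino acid shortage, 1 rose and 1 fell with corn oil. These were Mthfd2, a mitochondrial folate enzyme (0.45 ± 0.09, adjusted p = 0.0311), and Gpt2, mitochondrial alanine transaminase (-0.57 ± 0.11, adjusted p = 0.0266). Gpt2 was also called in the corn-oil interaction of the tissues (-0.72 ± 0.16, limma, adjusted p = 0.0494), as 0.652% of all genes were. From corn oil to EPA/DHA, Asns, asparagine synthetase, rose (0.84 ± 0.14, adjusted p = 0.0184) and Mthfd2 fell (-0.43 ± 0.09, adjusted p = 0.0461).

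Of 29 genes of amino acid sensing by mTORC1 tested in WAT, none passed for corn oil against low-fat. An unadjusted p under 0.05 was found for 6 of them, against 19.7% of all genes. From corn oil to EPA/DHA, 1 fell, the arginine sensor Castor1 (-0.50 ± 0.09, limma, adjusted p = 0.0283). Of 10 genes of glutamine and glutamate metabolism, 1 rose with corn oil, Aldh18a1, the first enzyme from glutamate to proline (0.20 ± 0.03, adjusted p = 0.0121), and it fell from corn oil to EPA/DHA (-0.21 ± 0.03, adjusted p = 0.0129). Of 9 genes of glutathione metabolism, 1 rose with corn oil, Ggct (0.14 ± 0.03, adjusted p = 0.0466). The breakdown of branched-chain amino acids, substrates of Slc43a1, was represented by 19 genes. With corn oil 5 of the 19 fell, where 1.82% of all genes were called lower. From corn oil to EPA/DHA 5 rose, where 2.34% of all genes were called in either direction. Those with the smallest p were Ivd (-0.74), Bckdha (-0.49), Bcat2 (-0.69) and Pccb (-0.40) for corn oil (limma, adjusted p 0.00579 to 0.0389). For EPA/DHA they were Bckdha (0.55), Ivd (0.50), Pcca (0.40) and Pccb (0.44) (adjusted p 0.00991 to 0.0368). Between tissues, where 31.3% of all genes were higher and 28.3% lower in WAT, 3 of 24 other carriers were higher and 9 lower. Among 31 ATF4 targets 11 were higher and 9 lower, and among 31 genes of mTORC1 sensing 8 and 13. Among 11 genes of glutamine and glutamate metabolism 5 were higher and 4 lower, and among 9 of glutathione metabolism 6 and 1. Among 19 of branched-chain breakdown 3 were higher and 11 lower. No gene of these lists passed in BAT for any diet or in WAT for EPA/DHA against low-fat.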

How the data were processed

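The deposited values were log2 expression per probe on Illumina mouse arrays, made by the authors with lumi 2.18.0, per the submitters' processing notes. Their sorted values agreed between arrays to within 0.0069, so they had been quantile normalised over all arrays. Whether the scale is a plain or a variance-stabilised log2 is not given in the sources used here. Array correlations ran from 0.969 to 0.992 (mean with the other arrays of the tissue). Of 45281 probes, 34885 had 1 gene symbol, 18 several and 10378 none. All 38 transporters matched RefSeq by Entrez ID.

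Probes with a tissue mean above the 40th percentile (7.11 in both tissues) were fitted with limma 3.58.1 in R 4.3.3, 12 arrays for each tissue's diets and all 24 for tissue and interaction. Tests were two-sided, and p-values were adjusted over all kept probes (27168 per tissue, 29493 in either). The pipeline was tested on simulated data. Marker means average a list's probes per array. Transporters were named if called in at least 1 of 10 comparisons, otherwise the 2 with the smallest p, plus Slc7a10, Slc36a2, Slc7a11 and Slc3a2. Of other lists, up to 4 called genes of a diet comparison were named. Others were chosen after their values were seen. Members and lists were chosen with earlier results of these data known. Alternatives were other filters, centring, priors, array weights, probe means, blocks, other sets of arrays, and, added after the data were seen, marker means as covariates. Arrays give no read depth, so their number limits precision.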

Additional observations from a re-analysis of the deposited data

Results flagged for a closer look

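In 126 groups of 4 arrays, from 21 named transporters, 7 held an array that stood apart from the other 3 by a gap that was larger, relative to the range of the group, than Dixon's critical value for 4 samples, and chance gives about 1 in 20 groups. Slc1a1 was 7.95 on BAT low-fat replicate 2, against 7.40 to 7.47 on the others. Slc38a2 was 8.61 on the same array, against 9.70 to 9.83, and that array also had the lowest mean correlation with its tissue (0.969). Slc1a2 was 7.56 on WAT low-fat replicate 1, against 7.18 to 7.22, and the liver marker mean there was 11.60. Slc1a4 was 7.07 on BAT low-fat replicate 1, against 7.12 to 7.13, and 7.47 on WAT corn-oil replicate 4, against 7.37 to 7.38. Slc1a5 was 7.68 on BAT corn-oil replicate 4, against 7.90 to 7.93. Slc7a8 was 8.24 on WAT corn-oil replicate 3, against 8.10 to 8.12.

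The corn-oil difference of Slc43a1 differed between the tissues, by -0.94 with an adjusted p of 0.0360 (limma interaction). It passed in 4 of 9 alternatives (adjusted p 0.0144 to 0.121) and in 5 of 16 fits without 1 array, and the BAT values lay close to the floor.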

How the results depend on the processing

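Of 984 alternative values of 36 named results, none changed sign, 954 stayed on the same side of the threshold, 25 lost their call and 5 gained one. For corn oil against low-fat in WAT the count of 2 became 1 with the replicate number as a block, with the mesothelial covariate and without both arrays with raised brown markers, Slc1a3 being lost each time (adjusted p 0.0519 with the block). It became 3 with a trended and robust prior (Slc36a1, higher), in the fit over 24 arrays (Slc1a5, lower) and with the brown adipocyte (Slc38a9, lower) and macrophage covariates (Slc7a3, lower), and was 1 to 2 when 1 array was left out. For EPA/DHA against corn oil in WAT the count of 0 became 1 with the 60th percentile filter, array weights, probe means and only the 8 arrays of both diets, and 2 in the fit over 24 arrays, and stayed 0 when 1 array was left out. The interaction count of 1 for corn oil became 0 without a filter, with array weights, with the replicate block (number, or diet and number) and without both raised arrays, and was 0 to 2 when 1 array was left out. The tissue count of 18 was 18 to 20 over alternatives. The other counts stayed at 0. Same-numbered WAT arrays of different diets had correlations of deviations from -0.27 to 0.55 (median 0.13, 7 of 12 above 0.1), against a median of -0.08 for different numbers (12 of 36). BAT arrays had -0.36 to 0.44 (5 of 12, against 13 of 36) and WAT with BAT -0.19 to 0.07 (0 of 12). As not every pair was above 0.1, the numbers were not taken to pair the samples. This rule is strict and cannot exclude a pairing, and WAT leaned that way. The cause of these changes was not tested.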
